A study of Mus musculus with 6 samples.

Results

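Kinesins are motor proteins that walk along, or take apart, microtubules. Transcripts of the mouse kinesin genes were followed here in haematopoietic stem cells (HSCs) that kept or lacked a histone label. The members were all genes whose single gene symbol on the array begins with Kif and a number, each read from the probe set that was brightest on average across the 6 arrays. This gave 37 genes out of 18193 measured in that way, with 99 probe sets in all. They comprised 12 kinesins that work in mitosis, 15 that carry cargo and 10 others that fall in neither class or are little characterised. Kinesin genes with another symbol pattern, such as Kifc1, are described after them but were not counted as members.

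Both groups came from bone marrow of the SCL-tTA H2B-GFP transgenic mouse line. In it the tTA-S2 transactivator, expressed from the endogenous scl locus, drives histone H2B fused to green fluorescent protein, so the label is made only in cells in which that locus is active. Doxycycline stops its synthesis, after which the stable fusion protein is diluted as cells divide. After a 170 day chase with doxycycline, cells negative for CD34, lineage markers and CD48 and positive for Sca1, cKit and CD150 were sorted by GFP. Label-retaining cells (LRC) were GFP-positive (3 samples), and non-LRC were GFP-negative (3 samples). A GFP-negative cell may have diluted its label in divisions or may never have been labelled, and these cannot be told apart here. The age and sex of the mice, and whether a sample was 1 animal or a pool, are not given in the sources used here. The comparison asked which kinesin transcripts differed between HSCs with and without retained label.

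In mitosis, kinesins push the spindle poles apart, move and align chromosomes, depolymerise microtubule ends and build the midzone on which cytokinesis depends. Many of these genes are transcribed mainly in the late cell cycle. Transport kinesins instead move vesicles, endosomes, mitochondria and ciliary components toward microtubule plus ends in cells that need not divide. HSCs divide rarely, and a retained histone label is used as a mark of cells with few past divisions.

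No kinesin gene passed the test across the whole array. In limma's moderated test, adjusted by the Benjamini-Hochberg method, 0 of 45037 probe sets had an adjusted p under 0.05 (0% of the array), while 1673 had an unadjusted p under 0.05. The adjusted p of the 37 members ran from 0.998 to 0.999. At an unadjusted p under 0.05 stood 4 of 37 members, against a background of 3.75% of all genes. These were Kif16b and Kif13a, both lower in LRC, and Kif1c and Kif26b, both higher in LRC. The same 4 genes were the members whose groups did not overlap. Every LRC value was below every non-LRC value for 2 of 37 members (background 3.62%), and above them for the other 2 (background 4.71%). Among the 12 mitotic kinesins, 0 had separated groups and 0 had an unadjusted p under 0.05. A lower mean in LRC was found in 15 of 37 members, against 45.1% of all genes. The counts for members are small, and with 3 samples a group the errors are wide.

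The arrays differed in ways that touch these values. All levels are log2 values of 1 probe set, so they can be compared between samples but not between genes. Array medians lay between 4.33 and 4.39. LRC replicate 1 had the lowest correlations with the other arrays (0.901 to 0.919, across probe sets). Hybridization controls, foreign transcripts added to each sample, read 11.24, 10.60 and 11.02 in LRC and 10.70, 10.60 and 10.58 in non-LRC. For Gapdh the 3′ probe set exceeded the 5′ one by 4.16, 3.16 and 3.24 in LRC and by 3.42, 2.72 and 3.40 in non-LRC. Xist, the noncoding RNA of the inactive X chromosome, was high on replicate 2 of both groups (10.90 and 11.00) and at or below 4.44 on the other 4 arrays. The part of these array differences in each kinesin value was not tested beyond the alternatives given with it.

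Of 9 genes of the sorting gate and of HSCs, 8 were measured. Kit averaged 9.07 in LRC and 9.05 in non-LRC, Procr 10.77 and 10.45, and Mecom 10.28 and 9.96, while Cd48 was near the floor at 2.60 and 2.73. Slamf1, the gene of CD150, averaged 7.61 in LRC and 7.98 in non-LRC, Flt3 4.54 and 4.81, and Tal1, the scl gene, 8.29 and 7.87. Cd34, whose surface protein was a negative mark of the gate, read 2.52, 6.97 and 5.10 in LRC and 7.43, 6.60 and 5.62 in non-LRC. Of these, LRC replicates 1 and 3 lay below the 5.20 mark for signal, described with the mitotic kinesins, and the other samples above it. Of 6 stromal markers 5 had a higher mean in LRC (median 0.21), as had 9984 of all 18193 genes. In 1 the groups were separated (16.7%), against 4.71% of all genes. Their median level was 3.83. Above the 5.20 mark stood 0 of the 6. Markers of erythroid, granulocyte and monocyte, B, and T or NK cells had median differences between -0.20 and 0.06, LRC minus non-LRC. Among 7 measured megakaryocyte markers 6 had a lower mean in LRC (median -0.28), against 45.1% of all genes. Of 6 endothelial markers 5 did (median -0.40), and their mean level ran from 4.16 to 4.90 in LRC and from 4.53 to 5.28 in non-LRC. In 1 megakaryocyte marker (14.3%) and 1 erythroid marker (20%) all LRC values lay above all non-LRC values, against 4.71% of all genes. Neither of these lists had a marker separated the other way. No marker of these lists passed the test, and their part in the kinesin values was not tested. In bulk samples, a change in the number of cells of a type and a change in RNA per cell cannot be told apart.

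The start regions of the kinesin genes differed by class in a way that no array value entered. The RefSeq promoter table of the build GRCm38.p6 gives 250 bases before and 50 after each annotated start, and 31 of the 37 members had at least 1 window. Searched on both strands were TTTGAA, the core of the cell cycle homology region through which many mitotic genes are held down in non-dividing cells, CCAAT, the box bound by NF-Y, and TTCCCGC, an E2F-like element. TTTGAA was found in 9 of 11 mitotic kinesins (81.8%), 1 of 11 transport kinesins (9.09%), 2 of 9 others (22.2%) and 20.2% of all 27025 genes of the table. CCAAT was found in 7 of 11 mitotic kinesins (63.6%), 3 of 11 transport kinesins (27.3%), 4 of 9 others (44.4%) and 41.1% of all genes. TTCCCGC was found in 0 of 11 mitotic kinesins, 0 of 11 transport kinesins, 2 of 9 others (22.2%) and 5.29% of all genes. By window rather than gene, the shares over the whole table were 17.9% for TTTGAA, 37.4% for CCAAT and 4.60% for TTCCCGC. A match is only a run of letters, and none was tested for factor binding.

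**Figure D1:**
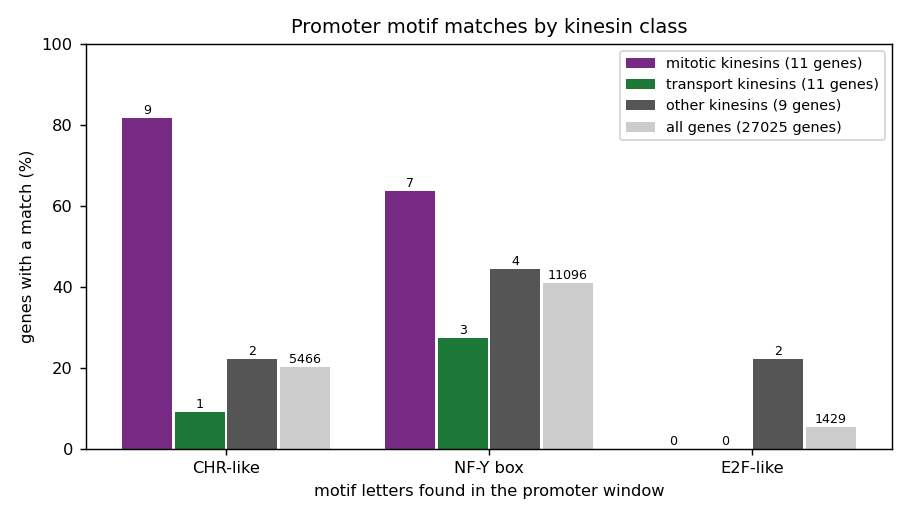
Share of genes (percent, y axis) whose annotated start windows hold each of the 3 motifs on either strand, for mitotic, transport and other kinesins and for all genes of the RefSeq table. The TTTGAA core (CHR-like) stands at 81.8% in mitotic kinesins, 9.09% in transport kinesins and 20.2% in all genes.

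Windows of 3 mitotic and 3 transport kinesins are printed. Kif20b and Kif23 had the most negative and the most positive difference of the mitotic class, Kif22 is shown for its matches to both TTTGAA and CCAAT, and Kif16b, Kif13a and Kif1c were the transport kinesins whose groups did not overlap. Each runs 5′ to 3′ along the gene's own strand, with matches to the 3 motifs on either strand in capitals (TTCAAA and ATTGG are the same motifs read from the opposite strand). Kif20b lies at chr19:34922108-34922407 (plus strand), Kif22 at chr7:127042371-127042670 (minus strand) and Kif23 at chr9:61946750-61947049 (minus strand). Kif16b lies at chr2:142901415-142901714 (minus strand), Kif13a at chr13:46929669-46929968 (minus strand) and Kif1c at chr11:70700298-70700597 (plus strand).
Kif20b: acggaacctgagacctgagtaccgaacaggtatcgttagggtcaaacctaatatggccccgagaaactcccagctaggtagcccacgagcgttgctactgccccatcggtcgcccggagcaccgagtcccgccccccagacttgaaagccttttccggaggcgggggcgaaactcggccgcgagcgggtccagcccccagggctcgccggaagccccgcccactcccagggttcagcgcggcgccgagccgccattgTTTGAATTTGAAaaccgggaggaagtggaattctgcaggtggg
Kif22: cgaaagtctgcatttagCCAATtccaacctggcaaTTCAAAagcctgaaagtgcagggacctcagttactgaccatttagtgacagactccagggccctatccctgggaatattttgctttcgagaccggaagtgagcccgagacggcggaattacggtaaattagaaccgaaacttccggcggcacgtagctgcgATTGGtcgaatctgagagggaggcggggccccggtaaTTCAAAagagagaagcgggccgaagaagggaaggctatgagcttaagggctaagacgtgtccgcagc
Kif23: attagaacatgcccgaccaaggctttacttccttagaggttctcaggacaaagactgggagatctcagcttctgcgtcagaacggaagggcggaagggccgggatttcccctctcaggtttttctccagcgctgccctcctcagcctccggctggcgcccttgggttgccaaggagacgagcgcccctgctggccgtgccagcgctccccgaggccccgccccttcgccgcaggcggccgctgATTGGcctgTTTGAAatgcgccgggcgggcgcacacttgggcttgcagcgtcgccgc
Kif16b: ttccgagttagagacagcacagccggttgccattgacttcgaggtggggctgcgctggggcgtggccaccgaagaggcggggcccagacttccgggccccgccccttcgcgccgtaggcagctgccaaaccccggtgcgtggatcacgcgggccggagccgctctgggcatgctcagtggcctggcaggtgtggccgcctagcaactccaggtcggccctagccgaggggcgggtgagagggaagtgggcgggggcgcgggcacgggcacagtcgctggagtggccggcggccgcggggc
Kif13a: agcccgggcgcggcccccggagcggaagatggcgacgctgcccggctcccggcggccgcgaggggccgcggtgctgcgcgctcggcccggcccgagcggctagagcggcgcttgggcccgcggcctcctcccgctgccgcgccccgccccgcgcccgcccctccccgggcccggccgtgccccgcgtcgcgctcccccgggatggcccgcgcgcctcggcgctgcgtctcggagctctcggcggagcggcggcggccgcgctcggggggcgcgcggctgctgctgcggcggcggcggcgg
Kif1c: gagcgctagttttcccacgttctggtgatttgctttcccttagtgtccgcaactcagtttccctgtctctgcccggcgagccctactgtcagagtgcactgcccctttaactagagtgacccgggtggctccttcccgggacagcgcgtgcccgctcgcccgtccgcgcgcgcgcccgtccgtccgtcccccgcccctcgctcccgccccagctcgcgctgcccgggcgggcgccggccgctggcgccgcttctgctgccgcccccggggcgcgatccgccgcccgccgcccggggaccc
Kif20b has TTTGAA on its own strand at 8 and 14 bases after the start, counted to the first letter. Kif22 has the motif on the opposite strand at 215 and 17 bases before the start, with CCAAT at 233 bases before it and, on the opposite strand, at 54. In Kif23 TTTGAA begins 3 bases after the start and an opposite-strand CCAAT 7 bases before it. The windows of Kif16b, Kif13a and Kif1c hold none of the 3 motifs, which says only that these letters are not in these 300 bases.

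Mitotic kinesins did not differ in one direction. Of the 12, 5 had a lower and 7 a higher mean in LRC, with a median difference of 0.03, LRC minus non-LRC, against 0.03 for all genes. The middle range of their differences, from the lower to the upper quartile, was -0.21 to 0.19. A mark for signal was taken from 32 measured genes of other organs, such as liver, muscle and eye genes, of which 90% lay under a mean of 5.20. Only Kif11, Kif20a, Kif20b, Kif22 and Kif23 of the mitotic kinesins averaged above it, so the values of the other 7 may hold little specific signal. Among those 5, on the brightest probe sets, 2 had a lower and 3 a higher mean in LRC, with a median difference of 0.17. As the mean over each gene's probe sets they differed by -0.15 (Kif11), -0.83 (Kif20a), -0.52 (Kif20b), -0.56 (Kif22) and 0.73 (Kif23).

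Kif20b, also called MPHOSPH1 and needed late in cytokinesis, had the most negative difference of the mitotic class. Its values were 4.96, 7.23 and 6.16 in LRC and 8.11, 6.30 and 7.14 in non-LRC. LRC replicate 1 was lowest and non-LRC replicate 1 highest, but LRC replicate 2 stood above 2 of the 3 non-LRC samples, so the groups overlapped. The means were 6.11 ± 1.14 in LRC and 7.18 ± 0.90 in non-LRC (n = 3 each, ± SD), a difference of -1.07 (limma SE 0.69, 95% interval -2.73 to 0.59), or a 2.10-fold lower level. The sign was the same on all 3 further probe sets. With LRC replicate 1 left out the difference was -0.49, and with LRC replicates 1 and 3 both left out it was 0.043.

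Kif20a (MKLP2), which brings the chromosomal passenger complex to the spindle midzone, read 5.14, 7.25 and 7.46 in LRC and 6.66, 7.94 and 7.74 in non-LRC. LRC replicate 1 was the lowest sample. For every replicate number the LRC value was below the non-LRC value. The labels do not say whether these numbers mark shared animals. Means were 6.61 ± 1.28 in LRC and 7.45 ± 0.69 in non-LRC (n = 3 each, ± SD), differing by -0.83 (SE 0.69, 95% interval -2.50 to 0.83). With LRC replicate 1 left out, and non-LRC replicate 1 kept, the difference was -0.093. It was 0.18 with the hybridization controls as a covariate. With the replicate number as a block it was -0.83 (SE 0.31, adjusted limma p 0.929).

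Kif23 (MKLP1), the motor subunit of centralspindlin, stood the other way. It read 8.43, 6.53 and 7.98 in LRC and 7.84, 6.61 and 6.28 in non-LRC. LRC replicates 1 and 3 were the highest 2 samples and LRC replicate 2 lay among the non-LRC values. The means of 7.65 ± 1.00 in LRC and 6.91 ± 0.82 in non-LRC (n = 3 each, ± SD) differed by 0.74 (SE 0.62, 95% interval -0.75 to 2.23). Both other probe sets of Kif23 had the same sign, at 1.33 and 0.12. On the first of these every LRC sample but replicate 2 exceeded every non-LRC sample (5.96, 4.90 and 5.76 in LRC, 3.45, 4.17 and 5.01 in non-LRC). With the level of the hybridization controls as a covariate the difference of Kif23 turned to -0.38, and it was also -0.38 with LRC replicates 1 and 3, the 2 arrays with brighter controls, both left out.

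Kif11 (Eg5), the motor that slides antiparallel microtubules apart to make the spindle bipolar, read 6.12, 6.66 and 6.50 in LRC and 4.58, 6.39 and 6.85 in non-LRC. The LRC samples lay close together while non-LRC replicate 1 was far below the rest. Means were 6.43 ± 0.27 in LRC and 5.94 ± 1.20 in non-LRC (n = 3 each, ± SD), with a difference of 0.49 (SE 0.59, 95% interval -0.93 to 1.90). Both other probe sets of Kif11 had the opposite sign, at -0.82 and -0.12. Without non-LRC replicate 1 the difference was -0.19.

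Kif22 (Kid), a chromokinesin that pushes chromosome arms toward the spindle equator, read 6.69, 7.54 and 8.68 in LRC and 7.16, 7.06 and 8.18 in non-LRC. In both groups replicate 3 was highest, and the means of 7.63 ± 1.00 in LRC and 7.46 ± 0.62 in non-LRC (n = 3 each, ± SD) differed by 0.17 (SE 0.56). This probe set is of a type that can cross-hybridize, and a Kif22 pseudogene exists, so its signal is uncertain. Both other probe sets of Kif22 were lower in LRC, at -1.38 and -0.47, and the mean over its probe sets differed by -0.56.

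**Figure D2:**
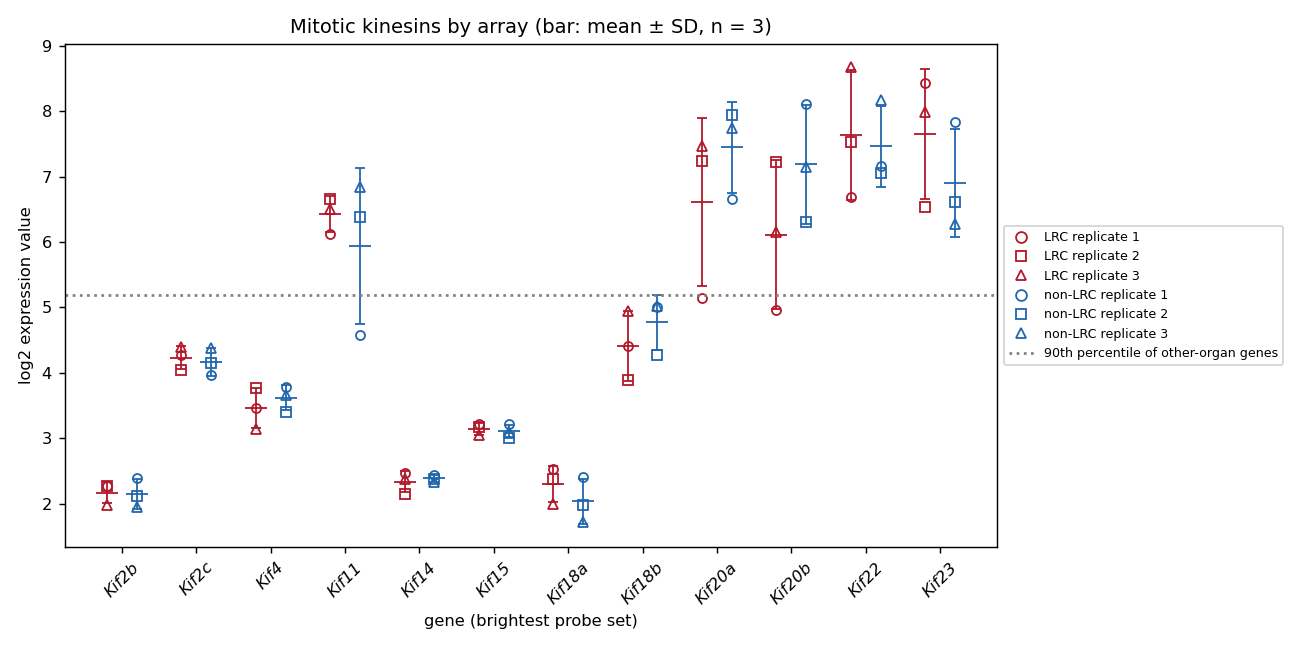
Log2 expression (y axis) of the 12 mitotic kinesins on each array, with LRC samples left of non-LRC samples for each gene, points for single samples, bars for the mean ± SD of 3 samples and a dotted line at the level of 5.20 taken from genes of other organs. Groups overlap for each of the 12 genes, and Kif20a, Kif20b, Kif22 and Kif23 spread more widely between samples of a group than the dim members do.

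The 7 dimmer mitotic kinesins differed little. Kif2c (MCAK), the depolymerase that corrects faulty kinetochore attachments, read 4.27, 4.04 and 4.40 in LRC and 3.96, 4.15 and 4.39 in non-LRC, with means differing by 0.07 (SE 0.21). The 3 further probe sets shared the sign, and on one of them all LRC values (3.84, 3.75 and 4.50) lay above all non-LRC values (3.06, 3.42 and 3.45), a difference of 0.72. Kif18b, which shortens astral microtubules, read 4.41, 3.89 and 4.94 in LRC and 5.01, 4.28 and 5.02 in non-LRC, with means differing by -0.36 (SE 0.35), or by -0.097 without LRC replicate 2. Kif18a, which dampens chromosome movement at the metaphase plate, read 2.54, 2.38 and 2.00 in LRC and 2.41, 1.98 and 1.72 in non-LRC, differing by 0.27 (SE 0.26). These gaps are about as large as their errors or smaller, and the groups overlapped for all 3 genes.

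Kif4, an X-linked chromokinesin of the spindle midzone, read 3.47, 3.76 and 3.15 in LRC and 3.79, 3.41 and 3.67 in non-LRC, with means differing by -0.16 (SE 0.23). Kif14, a cytokinesis motor that binds citron kinase, read 2.47, 2.16 and 2.38 in LRC and 2.45, 2.38 and 2.33 in non-LRC. Kif15, which helps Kif11 keep the spindle bipolar, read 3.22, 3.17 and 3.05 in LRC and 3.21, 3.01 and 3.10 in non-LRC. All 3 genes lay near the floor of the array with overlapping groups, and Kif14 and Kif15 differed by -0.05 and 0.04. Kif2b, a kinetochore depolymerase known from human cells, read 2.27, 2.27 and 1.99 in LRC and 2.40, 2.12 and 1.95 in non-LRC, with means differing by 0.02 (SE 0.21).

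Among transport kinesins, 6 of 15 had a lower and 9 a higher mean in LRC. Their median difference was 0.25, and the quartiles were wider than for the mitotic class, at -0.44 and 0.47. Of the 15, 12 averaged above the level of 5.20, with 6 lower and 6 higher in LRC and a median of 0.08. This class held the 2 members with the most negative differences, Kif16b and Kif13a, and the member with the most positive one, Kif1c.

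Kif16b, which moves early endosomes and recycling receptors by binding their phosphoinositides, was the most negative member. It read 3.68, 5.79 and 5.59 in LRC and 7.45, 6.73 and 6.32 in non-LRC. Every LRC sample lay below every non-LRC sample, with LRC replicate 1 far under the other 2. Means were 5.02 ± 1.16 in LRC and 6.83 ± 0.57 in non-LRC (n = 3 each, ± SD), a difference of -1.81 (SE 0.62, 95% interval -3.30 to -0.32) or a 3.51-fold lower level, with an unadjusted limma p of 0.0246 and an adjusted p of 0.998. A second probe set of Kif16b also separated the groups, at 5.04, 4.80 and 4.92 in LRC against 5.17, 5.54 and 5.62 in non-LRC. Another, near the floor, separated them the other way, at 2.53, 2.43 and 2.37 in LRC against 2.02, 2.12 and 2.34 in non-LRC. The difference was -1.14 without LRC replicate 1, -0.99 with the hybridization controls as a covariate and -0.68 as the mean of the gene's probe sets.

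Kif13a, which links recycling endosomes and cargo of the AP-1 adaptor to microtubules, read 5.27, 7.12 and 7.02 in LRC and 7.52, 8.23 and 7.77 in non-LRC. Here too every LRC value was below every non-LRC value and LRC replicate 1 was far the lowest. The means of 6.47 ± 1.04 in LRC and 7.84 ± 0.36 in non-LRC (n = 3 each, ± SD) differed by -1.37 (SE 0.53, 95% interval -2.66 to -0.09), a 2.59-fold lower level with an unadjusted limma p of 0.0399. Its probe set is of the type that can cross-hybridize, and 2 of the gene's 4 further probe sets shared the sign. The difference was -0.77 without LRC replicate 1, -0.52 with the hybridization controls as a covariate and -0.30 as the mean over probe sets.

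Kif1c, a carrier of integrin-bearing and other vesicles, was the most positive member. It read 6.31, 6.10 and 7.10 in LRC and 3.04, 5.34 and 5.36 in non-LRC. All LRC samples exceeded all non-LRC samples, and non-LRC replicate 1 was the lowest by over 2 log2 units. Means were 6.50 ± 0.53 in LRC and 4.58 ± 1.33 in non-LRC (n = 3 each, ± SD), a difference of 1.92 (SE 0.68, 95% interval 0.28 to 3.56), a 3.79-fold higher level with an unadjusted limma p of 0.0281. Of the gene's 3 further probe sets 2 shared the sign, with differences of 0.28, 0.18 and -0.12, all smaller than on the brightest one. Without non-LRC replicate 1 the difference was 1.15, and as the mean over probe sets it was 0.57.

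Of the remaining bright carriers, Kif5b, the widely expressed heavy chain of conventional kinesin, read 7.44, 8.81 and 7.92 in LRC and 8.09, 9.15 and 8.11 in non-LRC. Replicate 2 was highest in both groups, and the difference was -0.39 (SE 0.45). It was -0.085 without LRC replicate 1, -0.046 without non-LRC replicate 2 and -0.023 as the mean over probe sets, and 0.32 with the hybridization controls as a covariate. Kif1b, which carries mitochondria and synaptic vesicle precursors, read 6.66, 7.75 and 7.57 in LRC and 7.73, 8.14 and 7.55 in non-LRC, with means differing by -0.48 (SE 0.34). Its 6 other probe sets ranged from -1.76 to 1.64. On the lowest of these the groups almost touched (3.76, 5.296 and 4.57 in LRC, 7.74, 5.86 and 5.300 in non-LRC), though every LRC value was the lower one. Kif1b differed by -0.15 without LRC replicate 1 and by -0.31 without non-LRC replicate 2. Kif13b, a vesicle motor that binds the Dlg1 scaffold, read 8.62, 8.03 and 8.04 in LRC and 7.12, 7.71 and 8.31 in non-LRC, with means differing by 0.52 (SE 0.35) whose sign 1 of 3 other probe sets shared. Without non-LRC replicate 1 it was 0.22, and without LRC replicate 1 it was 0.32.

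Kif3a, a motor subunit of the kinesin-2 complex that builds cilia and moves vesicles, read 7.62, 6.68 and 6.36 in LRC and 4.76, 7.29 and 6.79 in non-LRC. Non-LRC replicate 1 was the lowest sample, and the difference of 0.60 (SE 0.70) became -0.16 without it. Of its 3 other probe sets 2 shared the sign, at 0.18 and 0.28. The remaining one had all LRC values (3.89, 6.71 and 6.67) below all non-LRC values (7.24, 6.72 and 6.85). There replicate 2 of the groups nearly met, and LRC replicate 1 was far the lowest. Kif21a, a motor that restrains microtubule growth at the cell cortex, had the widest spread of the members, at 3.38, 6.52 and 7.91 in LRC and 7.60, 6.70 and 6.02 in non-LRC. Its difference of -0.84 (SE 1.14) became 0.44 without LRC replicate 1. The other 7 transport kinesins, Kif1a, Kif3b, Kif3c, Kif5a, Kif5c, Kif17 and Kif21b, differed by -0.10 to 0.65, with a smallest unadjusted limma p of 0.153.

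**Figure D3:**
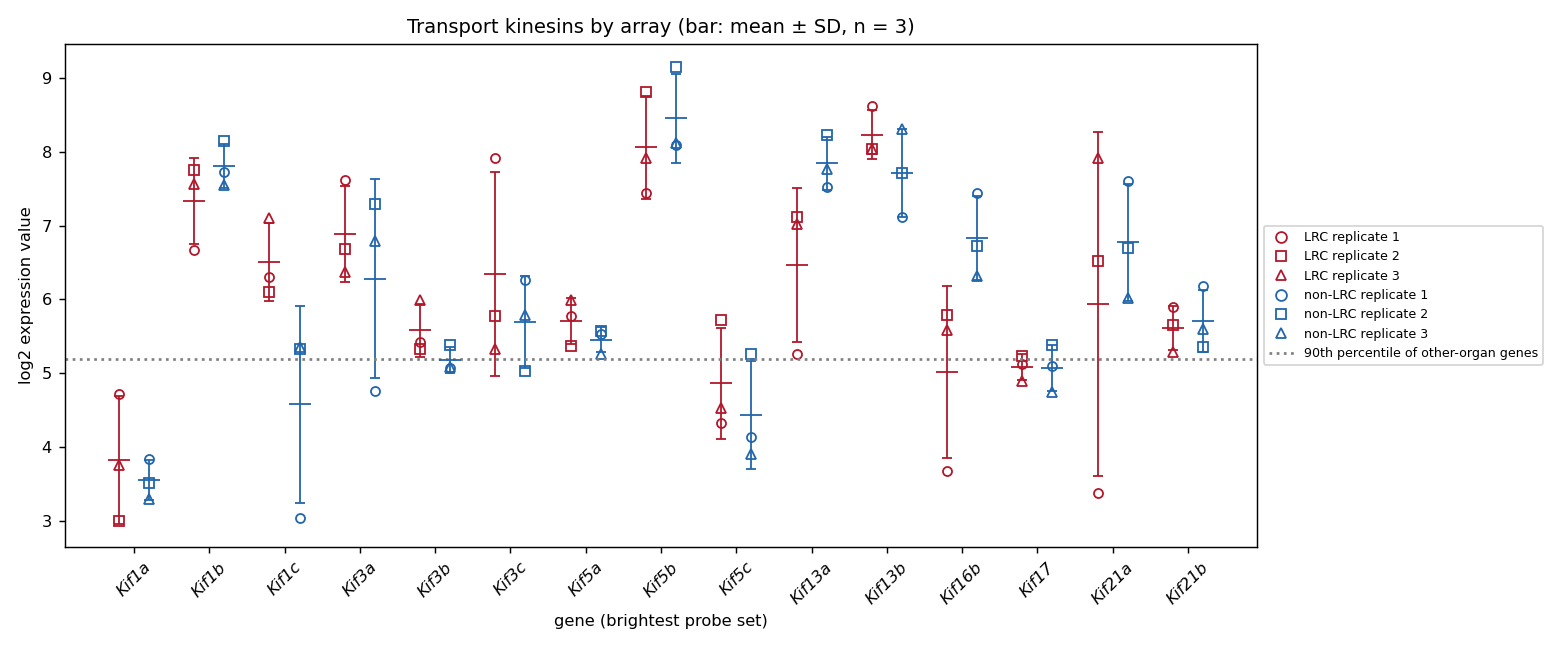
Log2 expression (y axis) of the 15 transport kinesins on each array, with LRC samples left of non-LRC samples, points for single samples and bars for the mean ± SD of 3 samples. Kif16b and Kif13a have all LRC points below the non-LRC points and Kif1c has all LRC points above them, and the dotted line marks the level of 5.20 taken from genes of other organs.

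The 10 other kinesins comprised 4 with a lower and 6 with a higher mean in LRC (median 0.13). Kif2a, a microtubule depolymerase of spindle poles and neurons, read 8.38, 7.35 and 7.83 in LRC and 6.10, 8.42 and 7.47 in non-LRC, with means differing by 0.52 (SE 0.61). Kif24, a depolymerase that restrains cilium formation at the mother centriole, read 5.22, 5.01 and 5.23 in LRC and 5.28, 6.11 and 5.20 in non-LRC, differing by -0.38 (SE 0.29). Both genes had overlapping groups. Kif2a differed by -0.095 without non-LRC replicate 1, and Kif24 by -0.087 without non-LRC replicate 2, its 1 high sample. Kif12, known for its expression in kidney, read 4.56, 4.26 and 4.82 in LRC and 4.54, 4.53 and 4.01 in non-LRC, with means differing by 0.19 (SE 0.25).

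Kif26b, an atypical kinesin known for kidney development and Wnt5a signalling, had 1 probe set. It read 2.85, 3.13 and 2.77 in LRC and 2.42, 2.48 and 2.36 in non-LRC. The groups did not overlap, with a difference of 0.50 (SE 0.19, 95% interval 0.05 to 0.95) and an unadjusted limma p of 0.0357, but both means (2.92 ± 0.19 in LRC and 2.42 ± 0.06 in non-LRC, n = 3 each, ± SD) lay far below the 5.20 mark. Genes of other organs, which blood cells are not known to use, were higher in LRC in 21 of 32 cases (median difference 0.08), as were 9984 of all 18193 genes (median 0.03). The remaining 6, Kif6, Kif7, Kif9, Kif26a, Kif27 and Kif28, differed by -0.29 to 0.30.

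Taken class against class, the median difference of mitotic kinesins was 0.22 lower than that of transport kinesins (-0.22), and the ranges of both classes covered 0. The classes share the same 6 arrays, and this contrast of medians was given no test. It shrank to -0.064 with dim probe sets left out, to -0.074 with the hybridization controls as a covariate and to -0.089 with array weights. It grew to -0.30 with another quantile normalization and to -0.27 with the mean over the probe sets of each gene. Above the 5.20 mark the order turned on the brightest probe sets, with medians of 0.17 for mitotic and 0.08 for transport kinesins. As the mean over probe sets, Kif11, Kif20a, Kif20b and Kif22 were lower in LRC and only Kif23 of these bright mitotic kinesins was higher. The turned order is thus given for the brightest probe sets alone. Leaving out LRC replicate 1 brought the transport median to -0.009, and leaving out LRC replicate 2 to -0.002. The lowest array differed by gene. Among the 5 mitotic kinesins above the 5.20 mark, 3 had their lowest value on LRC replicate 1 (60%). Of the 12 such transport kinesins, 5 were lowest on LRC replicate 1 (41.7%) and 4 on non-LRC replicate 1 (33.3%), against 29.7% and 19.2% of all genes above the mark.

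**Figure D4:**
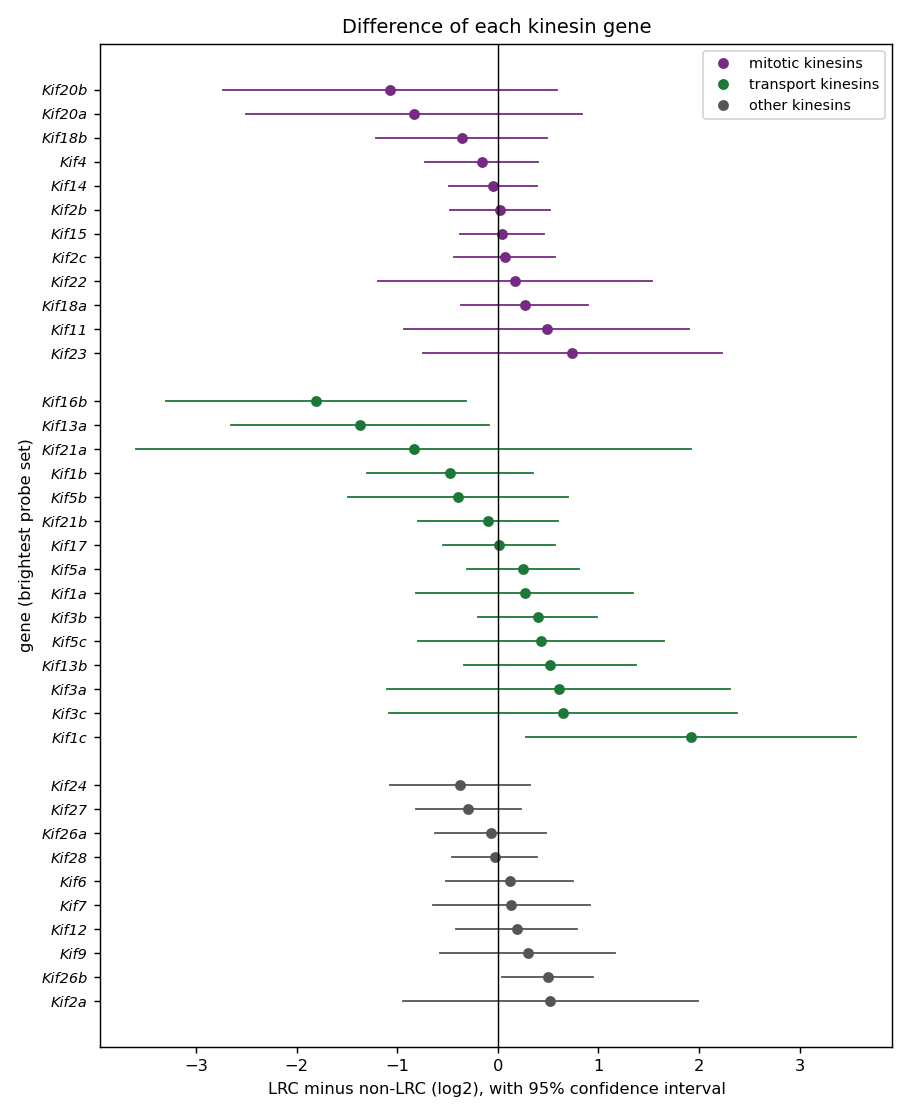
Difference in log2 expression, LRC minus non-LRC, of each of the 37 kinesin genes with its 95% interval, ordered by class and size. Intervals of Kif16b and Kif13a lie below 0 and those of Kif1c and Kif26b above it, before any adjustment for the number of tests.

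Different probe sets of a kinesin gene often disagreed. Of the 37 members 12 had 1 probe set and 25 had more. In 11 of the 25 every other probe set shared the sign of the brightest one, in 10 some did and in 4 none did, and 38 of the 62 other probe sets shared the sign in all. Over all 99 kinesin probe sets, 5 had all LRC values below all non-LRC values (5.05%) and 4 above (4.04%), against 3.40% and 4.88% of the 45037 probe sets tested. Probe sets of a gene can read different transcript ends, and no value here tells which reads the motor-coding transcript.

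**Figure D5:**
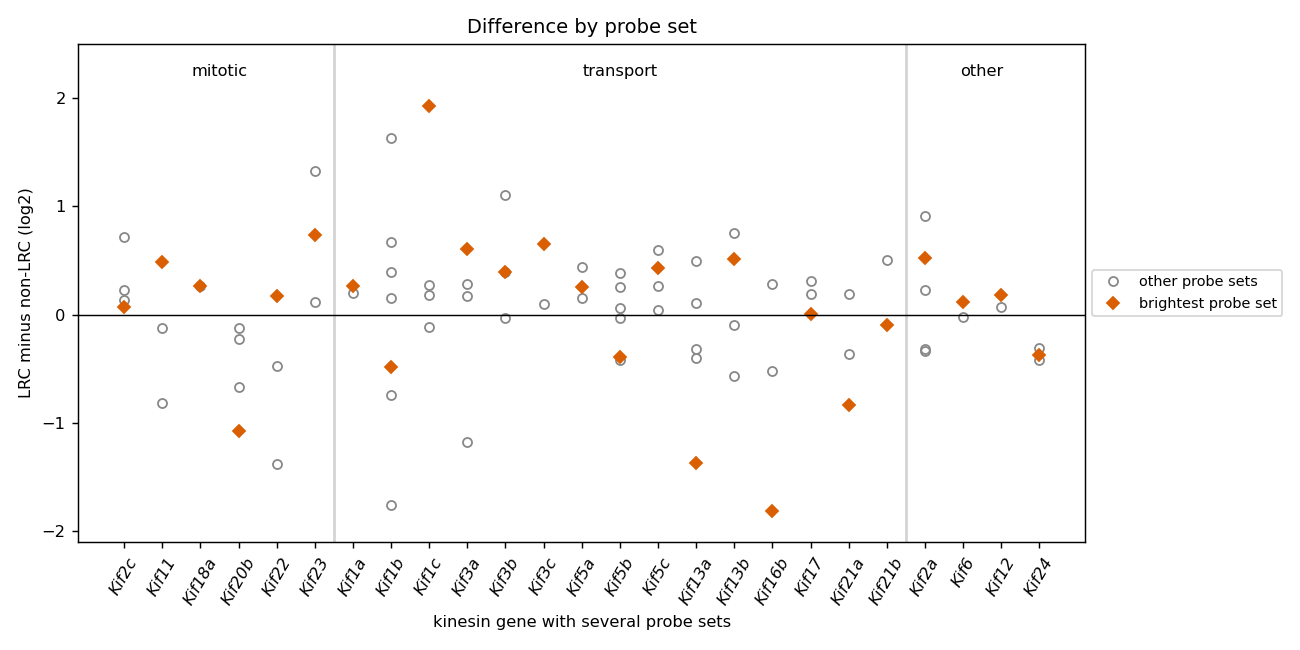
Difference in log2 expression, LRC minus non-LRC, of every probe set of the kinesin genes with more than 1 probe set, with the brightest probe set of each gene drawn apart from the others. For Kif23 and Kif20b all probe sets lie on one side of 0, while those of Kif11, Kif22 and Kif1b lie on both.

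Partners of the mitotic motors had mostly lower means in LRC. Of 25 spindle and midzone genes 20 did, against 45.1% of all genes and 53.5% of genes above the 5.20 mark, which 14 of the 25 passed. The median difference was -0.36, and 0 passed the test. In 3 all LRC values were the lower ones (12%), against 3.62% of all genes and 5.45% of those above the mark. Cdca8, the borealin subunit of the chromosomal passenger complex that Kif20a carries, read 8.90, 8.91 and 9.18 in LRC and 10.42, 10.08 and 10.05 in non-LRC, with means differing by -1.19 (SE 0.20) with no overlap. Prc1, the midzone bundler that Kif4 and Kif23 work with, differed by -1.09 (SE 0.47) and Tacc3, which binds spindle microtubules, by -1.18 (SE 0.46). Anln, the anillin of the cleavage furrow, was 1 of the 3 separated genes but averaged only 3.79, below the 5.20 mark. It differed by -0.53 (SE 0.22), but by a positive amount on its 1 other probe set. As the mean over probe sets Cdca8 differed by -0.56, Prc1 by -0.66, Tacc3 by -0.89 and Anln by -0.20, with the list's median still -0.36. The lowest array was LRC replicate 1 for 12 of the 25 and LRC replicate 3 for 9. With the hybridization controls as a covariate the list's median was -0.06, and with LRC replicates 1 and 3 both left out it was -0.12. Whether this list differed from the mitotic kinesins was not tested.

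General proliferation markers were lower on average too, with 9 of 11 measured lower in LRC (81.8%) and a median of -0.94. In 4 of them all LRC values were the lower ones (36.4%). Of the 11, 10 averaged above the 5.20 mark, and of all genes above it 53.5% were lower in LRC and 5.45% separated in that direction. Ccna2, cyclin A2, differed by -1.96 (SE 0.66), Ccnb2, cyclin B2, by -1.39, and the replicative helicase subunits Mcm2 and Mcm6 by -1.11 and -0.62. The Mcm6 probe set is of the type that can cross-hybridize, and as the mean over its probe sets Mcm6 differed by -0.25. None of the 11 markers passed the test, and 7 were lowest on LRC replicate 1. Their median was -0.43 without that array and -0.28 with LRC replicates 1 and 3 both left out. It was close to 0 with the hybridization controls as a covariate and -0.41 as the mean over probe sets. By that mean Ccna2 differed by -1.42 and Mcm2 by -0.56.

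On the transport side, 13 of 22 measured cargo adaptors had a lower mean in LRC (median -0.07). Jakmip1, which links microtubules to GABA receptors and Janus kinases, differed by 1.39 (SE 0.40), and Mapk8ip3 (JIP3), which tethers kinesin-1 to vesicles, by -1.64 (SE 0.53), each with separated groups and neither past the test. In each direction 4.55% of the list was separated, against 3.62% of all genes below and 4.71% above. The Jakmip1 probe set is of the type that can cross-hybridize. The sign was shared by 1 of 3 other probe sets of Jakmip1 and 1 of 2 of Mapk8ip3. As the mean over probe sets Jakmip1 differed by 0.07 and Mapk8ip3 by -0.62. Of 21 measured subunits and adaptors of cytoplasmic dynein and dynactin, the motor that runs the opposite way, 14 had a lower mean in LRC, with a median of -0.09 and 0 separated. Dynll1, a dynein light chain, differed by -0.65 (SE 0.29). Among the 5 kinesins outside the naming rule 3 had a lower mean in LRC and 0 had separated groups. Of these 5, 0 averaged above the 5.20 mark, so their values may hold little specific signal. Kifc1, the minus-end motor that clusters spindle poles, differed by -0.59 (SE 0.36), Kifc5b, a gene of the same family, by -1.09 (SE 0.60), Kifc3, a minus-end motor of cell junctions, by 0.76 (SE 0.66) and Kifc2 by 0.10 (SE 0.24).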

How the data were processed

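RNA of 3 LRC and 3 non-LRC samples, called independent biological replicates in the series' design text, was amplified in 2 rounds, biotin-labelled and hybridized to 1 expression array each, per the labels' protocols. The authors deposited a log2 expression level for each probe set in each sample. RMA is named, without a version, in the submitters' processing notes. The base of the logarithm was inferred from how far the values range. RMA makes array distributions nearly equal, so total RNA per cell cannot be seen. The number of arrays, not depth, limits the precision.

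From the deposited log2 values, LRC minus non-LRC was tested with limma 3.58.1 in R 4.3.3 (lmFit, eBayes, no covariate) on 45037 of 45101 probe sets, leaving out 64 controls. The Benjamini-Hochberg adjustment was used, with a threshold of 0.05, and intervals are limma's at 95%. The fit was also run on simulated data. Of the probe sets tested, 34945 had 1 gene symbol in the platform annotation, 932 several and 9160 none. Only the first kind named genes.

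Every mitotic member, the 6 transport and 3 other members of highest mean, and any further member with an unadjusted p under 0.05 are given array by array. From each further list the genes named were among the up to 4 of smallest unadjusted p. The members, classes, lists and the naming rule were chosen with earlier results of these data known. Motif positions and sequences come from RefSeq. A bright-enough mark was set from 32 measured genes of other organs. The alternatives were another quantile normalization, median centring, dropping dim probe sets, trend and robust moderation, array weights, a replicate block, leaving out arrays, the hybridization controls as a covariate and the mean over probe sets. An Xist-level block, and all of these alternatives for the further lists, were added after seeing the data.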

Additional observations from a re-analysis of the deposited data

How the results depend on the processing

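The number of probe sets past limma's adjusted threshold was 0 in each setting, while 1673 had an unadjusted p under 0.05 (1411 to 3203 over the settings that tested all 45037 probe sets, and 1087 of 27022 with dim probe sets left out). The smallest adjusted p of any member in any setting was 0.635. The direction held in each setting that gave a value for 10 of 37 members, namely Kif13a, Kif13b, Kif16b, Kif18a, Kif18b, Kif1c, Kif24, Kif26b, Kif27 and Kif3b. Dropping dim probe sets, trend and robust moderation, the replicate block and the Xist-level block leave a difference unchanged and could not turn a sign. The mean over probe sets could not turn it for Kif18b, Kif26b and Kif27, which have a single probe set. Kif18a, Kif26b and Kif27 averaged 2.17, 2.67 and 2.63, near the floor. The share of all genes that kept their direction was not computed. The median of mitotic kinesins (0.03) was -0.10 as the mean of all probe sets. Leaving out single arrays moved it from -0.028 to 0.034, the transport median (0.25) from -0.0088 to 0.25, the mitotic minus transport difference (-0.22) from -0.27 to 0.036, and the count of 4 members with separated groups from 4 to 10, with 10 without LRC replicate 2 and 8 without non-LRC replicate 2. Fewer samples separate more easily. For these settings the share over all genes was not computed, so the counts are no result about the members. Single members turned sign under other settings, and the cause was not tested. With the hybridization controls as a covariate these were Kif1a -0.60, Kif1b 0.0089, Kif2c -0.028, Kif3c -0.32, Kif4 0.0041, Kif5b 0.32, Kif12 -0.040, Kif20a 0.18, Kif21a 0.24 and Kif23 -0.38. With LRC replicates 1 and 3 both left out, which leaves 1 LRC array and no replicated test, they were Kif1a -0.56, Kif2c -0.13, Kif4 0.14, Kif5a -0.087, Kif5b 0.36, Kif12 -0.10, Kif20b 0.043 and Kif23 -0.38. Array weights gave Kif7 -0.077, Kif17 -0.020, Kif21a 0.11 and Kif26a 0.031, another quantile normalization Kif2b -0.031 and Kif15 -0.011, and the mean over probe sets Kif3a -0.029, Kif11 -0.15, Kif21b 0.20 and Kif22 -0.56. Leaving out single arrays gave sign changes within Kif1a -0.18 to 0.68, Kif2a -0.095 to 1.06, Kif2b -0.084 to 0.14, Kif2c -0.035 to 0.18, Kif3a -0.16 to 1.11, Kif3c -0.14 to 1.15, Kif5c -0.0015 to 0.84, Kif6 -0.072 to 0.32, Kif7 -0.13 to 0.34, Kif9 -0.090 to 0.53, Kif11 -0.19 to 0.94, Kif14 -0.12 to 0.039, Kif15 -0.0083 to 0.10, Kif17 -0.15 to 0.16, Kif21a -1.82 to 0.44, Kif21b -0.28 to 0.13, Kif22 -0.35 to 0.64, Kif26a -0.17 to 0.083 and Kif28 -0.083 to 0.041. In their deviations from the group means, samples of the same number correlated by 0.060, 0.13 and 0.091 and samples of different numbers by -0.075 to -0.014. Each array thus correlated best with its own number, but not every pair exceeded 0.1, so the numbers were not used as pairs. The labels do not say whether they mark shared animals. With the replicate block 0 probe sets passed the adjusted threshold and 2017 had an unadjusted p under 0.05. Leaving out dim probe sets kept 26 of 37 members. Arrays limit these values by their number and, for the members below the 5.20 mark, by signal near background.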
